A study of Mus musculus with 9 samples.

Results

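The comparison set 3 uterus libraries from mice given bisphenol AF (BPAF) against 3 uterus libraries from mice given corn oil alone, called controls here. These 6 libraries were chosen by treatment, out of 9 in the series. The mice were female CD-1 (ICR), a wild-type stock that is outbred, 7 to 8 weeks old when bought and kept for 1 week before dosing, on food without estrogen and on corncob bedding. BPAF was given by gavage at 300 µg per kg of body weight per day for 28 days, and the controls received corn oil over the same time. The other 3 libraries came from mice given bisphenol B (BPB) at the same dose and for the same time. The whole uterus was the labelled tissue, and poly(A) RNA was sequenced from a stranded kit. Of 34619 gene symbols that occur once in the files, 12901 reached 1 FPKM (fragments per kilobase of gene, relative to the total of the library) in at least 3 of the 6 libraries and were tested. The labels give no stage of the cycle and no hour of collection, and do not say whether the 3 libraries of a group are 3 mice, so that the p-values measure the spread between these libraries.

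BPAF is a bisphenol with a pair of trifluoromethyl groups on its bridging carbon, where bisphenol A has methyl groups. It is known to bind the estrogen receptors. In the mouse uterus, estradiol acts through ESR1 to raise secretory and barrier genes of the epithelium, such as Ltf, C3 and the Sprr2 genes, and to start epithelial division, while progesterone acts through PGR and Indian hedgehog to hold that division and to prepare the stroma. Both sets of genes therefore swing over the normal cycle, and so do genes of the matrix and of leukocytes.

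The libraries rested on 12620196 to 15616774 reads, as recovered from the steps between FPKM values. Genes at 1 FPKM or more numbered 11614 (control 3) to 13105 (BPAF 1). The 13 protein-coding mitochondrial genes held 14.0%, 14.1% and 34.1% of the FPKM sum in control 1, 2 and 3 and 19.6%, 25.2% and 22.9% in BPAF 1, 2 and 3. The median SD of log2(FPKM + 1) within a group was 0.44 in controls and 0.34 in BPAF. Values below are listed in the order of replicate 1, 2 and 3.

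Limma called 3 of the 12901 genes at an adjusted p under 0.05 (0.0233%), with Ggnbp1 higher in BPAF (0.00775%) and Zbtb9 and Pnoc lower (0.0155%). Zbtb9 encodes a zinc finger protein with a BTB domain, Ggnbp1 a protein named for its binding to gametogenetin of the male germ line, and Pnoc prepronociceptin, the precursor of the opioid-related peptide nociceptin. All 3 stood below 1 FPKM in 1 of the groups and reached at most 7.46 FPKM, the Zbtb9 value of control 1. In whole uterus fewer cells of a type and less RNA per cell cannot be told apart. At an adjusted p under 0.1 the count was 5 (0.0388%), with Trim15 and Ppp1r3c lower.

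Zbtb9 stood at 7.46, 6.83 and 6.97 FPKM in the controls and at 0.446, 0.514 and 0.401 FPKM in BPAF. The groups lay far apart, with a control mean 15.6-fold higher and a spread within each group that was small beside the gap. Zbtb9 fell by 2.48 on the log2(FPKM + 1) scale (SE 0.188, limma, adjusted p = 0.00254). The reads inferred behind these values were 315, 265 and 246 in the controls and 16, 21 and 15 in BPAF.

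Ggnbp1 went the other way, from 0.304, 0.487 and 0.315 FPKM in the controls to 4.33, 4.13 and 5.54 FPKM in BPAF. Each BPAF library exceeded every control. It rose by 2.04 on the log2(FPKM + 1) scale (SE 0.215, limma, adjusted p = 0.0238), with 38, 56 and 33 reads in the controls and 460, 500 and 614 in BPAF. Zbtb9 and Ggnbp1 lie on mouse chromosome 17 on the same strand. In the annotation GENCODE M21 a Ggnbp1 transcript begins inside Zbtb9, so how reads are shared between them depends on the counting, and both values are uncertain.

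The windows below are shown because these neighbours moved in opposite directions. They are promoter windows of RefSeq on GRCm38.p6, plus strand, written 5′ to 3′, and capitals mark CCAAT boxes (CCAAT) and GC boxes (GGGCGG), each searched on both strands. The build of the deposited values is not given in the sources used here.
Zbtb9, chr17:26972929-26973228: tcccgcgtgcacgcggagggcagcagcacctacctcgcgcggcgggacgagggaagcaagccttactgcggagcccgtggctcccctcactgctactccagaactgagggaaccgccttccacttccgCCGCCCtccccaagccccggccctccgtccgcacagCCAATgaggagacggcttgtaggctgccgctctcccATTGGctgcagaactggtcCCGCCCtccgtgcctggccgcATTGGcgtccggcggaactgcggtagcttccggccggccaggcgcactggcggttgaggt
Ggnbp1 upstream start, chr17:27017785-27018084: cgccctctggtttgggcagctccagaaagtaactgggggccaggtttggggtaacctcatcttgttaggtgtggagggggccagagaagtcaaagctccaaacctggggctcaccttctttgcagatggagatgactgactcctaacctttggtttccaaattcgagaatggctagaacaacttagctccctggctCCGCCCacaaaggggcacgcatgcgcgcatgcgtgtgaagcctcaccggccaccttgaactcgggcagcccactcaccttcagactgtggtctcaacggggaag
Ggnbp1 downstream start, chr17:27029009-27029308: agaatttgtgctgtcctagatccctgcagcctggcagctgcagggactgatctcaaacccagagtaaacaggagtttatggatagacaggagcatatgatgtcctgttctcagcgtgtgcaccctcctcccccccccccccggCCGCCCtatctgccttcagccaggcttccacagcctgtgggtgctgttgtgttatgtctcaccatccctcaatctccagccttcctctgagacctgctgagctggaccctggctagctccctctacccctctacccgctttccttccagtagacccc
The Zbtb9 window held 3 CCAAT boxes and 2 GC boxes, and each Ggnbp1 window held 0 CCAAT boxes and 1 GC box. Over 32851 RefSeq windows of the same length, 37.4% held a CCAAT box and 35.7% a GC box. The E-box CACGTG (7.15% of windows) and the estrogen response element GGTCANNNTGACC (0.07% of windows) had 0 matches in these 3 windows. The marked motifs do not overlap each other. A match describes letters only.

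Pnoc stood at 2.18, 3.01 and 2.42 FPKM in the controls and 0.0362, 0.0635 and 0 FPKM in BPAF, where 1 library is listed at 0. No BPAF library came near the lowest control. Pnoc fell by 1.77 on the log2(FPKM + 1) scale (SE 0.199, limma, adjusted p = 0.0273), from 71, 90 and 66 reads in the controls to 1, 2 and 0 in BPAF. The comparison for Pnoc is thus between a low level and almost no reads. Of the other nociceptin and opioid genes only Penk, the enkephalin precursor, was high enough to test, at 6.75, 9.97 and 6.83 FPKM in the controls and 15.1, 6.22 and 30.4 FPKM in BPAF, with overlapping libraries (limma, adjusted p = 0.584). Oprl1, the nociceptin receptor gene, reached at most 0.0155 FPKM in the 6 libraries.

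Genes beside the called ones mostly overlapped between the groups. Of 10 tested genes in the Zbtb9 and Ggnbp1 neighbourhood, those 2 alone had libraries that did not overlap. Bak1, a pro-apoptotic BCL2 family gene that lies between the Ggnbp1 starts on the other strand, had 27.0, 14.9 and 12.7 FPKM in the controls and 12.2, 19.8 and 6.33 FPKM in BPAF. Near Pnoc, 11 genes were tested and Fbxo16, an F-box gene, was the only one besides Pnoc whose libraries did not overlap. Over all genes the libraries did not overlap in 16.6%, so 1 such gene beside Pnoc does not stand out. Fbxo16 had 0.162, 0.470 and 0.258 FPKM in the controls and 1.08, 1.62 and 1.40 FPKM in BPAF, or 3, 8 and 4 against 17, 29 and 23 reads. It did not pass (log2 difference 0.87, limma, adjusted p = 0.289).

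**Figure D1:**
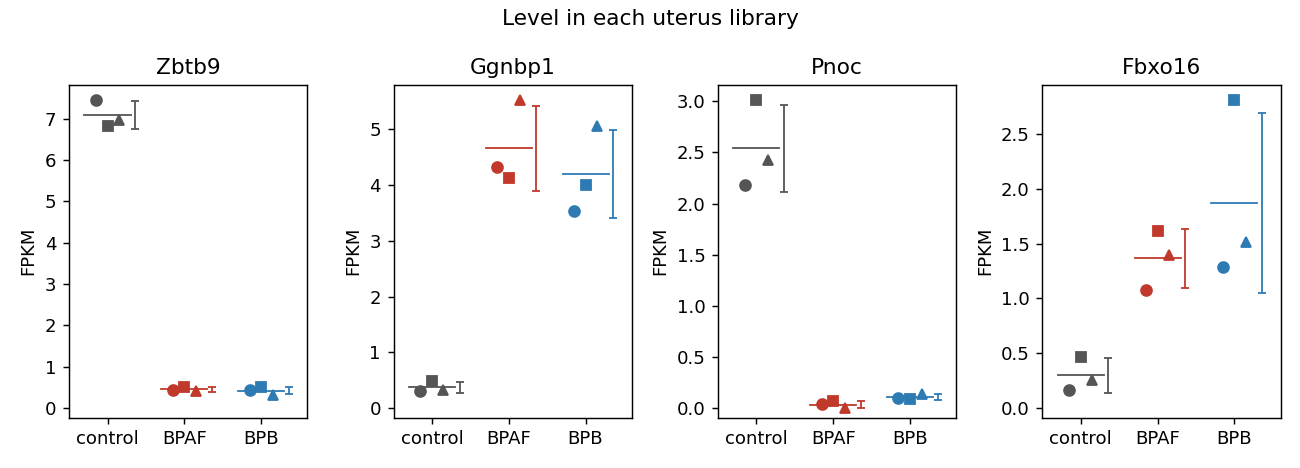
Level in FPKM (linear axis from 0) of the 3 called genes and of Fbxo16 in each control, BPAF and BPB library. Points are libraries (circle, square and triangle for replicates 1, 2 and 3), lines are means and bars are SD with n = 3, and for each gene every BPAF library lies outside the range of the controls.

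The calls needed the BPB libraries in the fit. With the 6 libraries fitted alone, limma called 0 genes, with 1099 at an unadjusted p under 0.05, and the adjusted p was 0.1 for Zbtb9 and 0.175 for Ggnbp1 and Pnoc. Zbtb9 kept its call when any of the 6 libraries was left out, with an adjusted p of 0.0134 to 0.0364, while Pnoc lost it in every such fit (0.0514 to 0.143) and Ggnbp1 lost it without control 1 (0.116) or BPAF 1, 2 or 3 (0.106, 0.0514 and 0.143).

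Below the threshold the shift was wide and leaned upward. In 1808 genes (14.0%) all 3 BPAF libraries lay above all 3 controls, and in 328 genes (2.54%) all 3 lay below. At an unadjusted p under 0.05 there were 1292 higher (10%) and 368 lower (2.85%). The median log2 difference over all genes was 0.20, and 69.3% of genes had a higher mean log2 value in BPAF. The lean depended on the scaling: with median ratios 697 genes (5.4%) lay wholly above and 925 (7.17%) wholly below, and the median moved to -0.05. It was also smaller without control 3, where 60.4% of genes had a higher mean, 3033 (23.5%) lay wholly above and 1488 (11.5%) wholly below. With any other library left out, 66.8% to 71.7% had a higher mean. In those fits 2322 to 3115 genes lay wholly above and 444 to 799 wholly below. Groups lie apart more easily when a library is left out, also without control 3. Those counts are thus not comparable with the counts of all 6 libraries. Because of the lean, counts of genes or list medians are to be read beside 0.20, and a difference of that size is no difference from the bulk of genes.

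**Figure D2:**
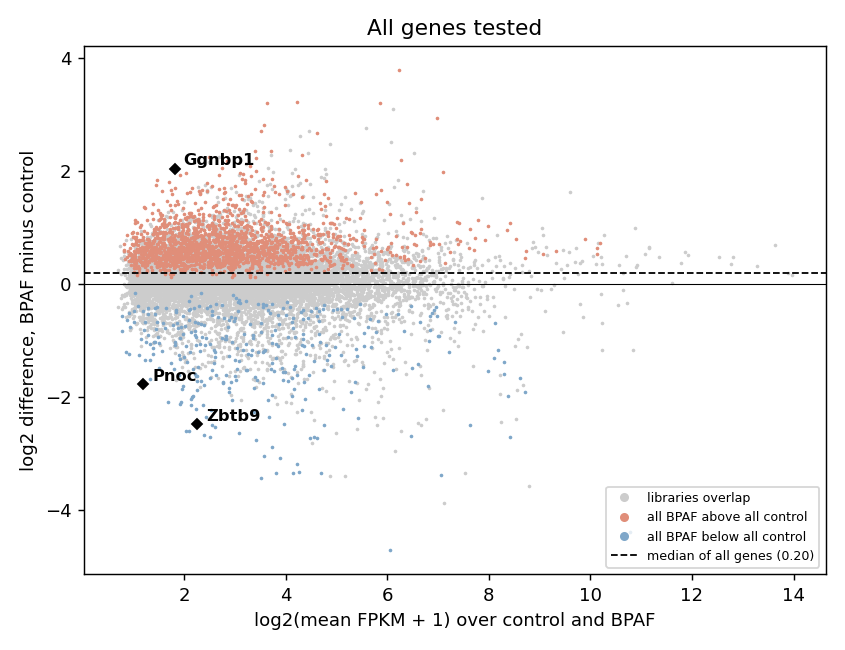
Log2 difference (BPAF minus control, vertical axis) against log2(mean FPKM + 1) over control and BPAF (horizontal axis) for the 12901 genes tested. Red points are genes whose 3 BPAF libraries lie above all 3 controls, blue points those below, grey points overlap, black diamonds are the 3 called genes, and the dashed line is the median of all genes at 0.20.

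Smooth muscle, epithelial and stromal genes were present in all 6 libraries, and the libraries differed in what else they carried. Acta2, actin of smooth muscle, stood at 1688, 1892 and 1125 FPKM in the controls and 1078, 1219 and 238 FPKM in BPAF, and Krt8, a keratin of simple epithelium, at 484, 286 and 299.6 FPKM in the controls against 339, 404 and 89.3 FPKM in BPAF. BPAF 3 was the lowest library for both. Pdgfra, a receptor of stromal fibroblasts, ranged from 3.24 FPKM in control 3 to 40.8 FPKM in control 2 and showed no order by treatment.

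BPAF 1 carried the genes of urothelium, the lining of the urinary tract. The uroplakin gene Upk1a stood at 0.203, 2.98 and 0 FPKM in the controls and 399.5, 0.838 and 3.14 FPKM in BPAF, and Upk3a was listed at 0 in all controls and in BPAF 2 and 3, and reached 323 FPKM in BPAF 1. Summed over 15 urothelial genes, the level was 71.3 to 154 FPKM in the controls and 1944, 90.6 and 44.6 FPKM in BPAF. Krt5, a basal keratin that is also squamous, was high in BPAF 1 (95.8 FPKM) and in control 3 (71.9 FPKM), and control 3 alone held Krt14 (103 FPKM against at most 1.44 FPKM in the other 5). Adipocyte genes (14 in the files) summed to 124 to 148 FPKM in the controls and to 735, 18.8 and 397 FPKM in BPAF.

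BPAF 3 was set apart by gland proteases. Prss29, an implantation serine protease of uterine glands, stood at 0, 0.174 and 5817 FPKM in BPAF and at 0, 379 and 0 FPKM in the controls. Prss28 had 0, 0.173 and 2289 FPKM in BPAF and 0, 54.9 and 0 FPKM in the controls. Foxj1, a factor of ciliated cells, reached 5.48 FPKM in BPAF 2 and at most 1.03 FPKM elsewhere among the 6.

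**Figure D3:**
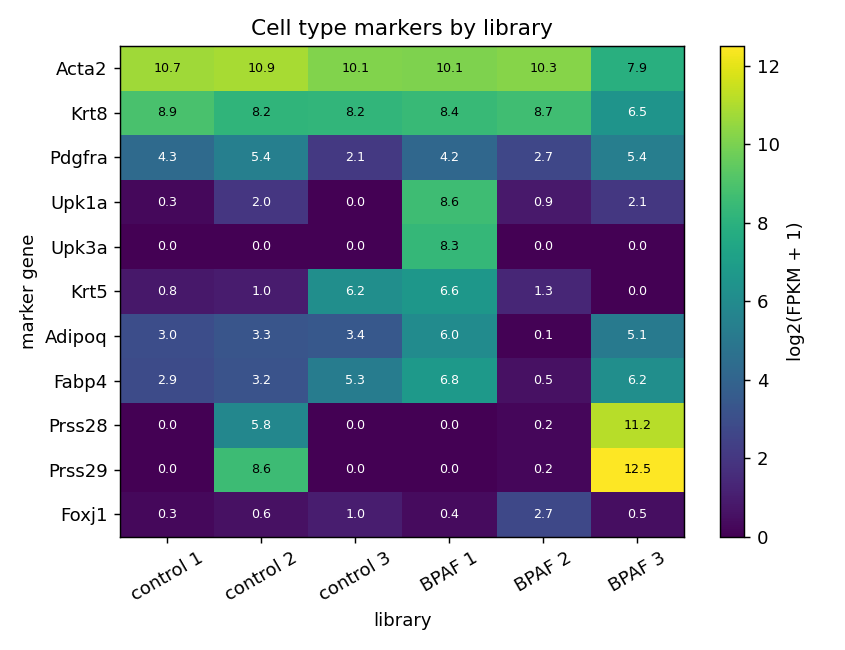
Log2(FPKM + 1) of 11 cell type markers (rows) in the 6 libraries (columns), with the value printed in each cell and a colour scale from 0 to the highest value. Upk1a and Upk3a are high in BPAF 1 alone, Prss28 and Prss29 in BPAF 3 and, lower, in control 2, and Acta2 and Krt8 are lowest in BPAF 3.

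Of the 12 genes picked on the higher side, 3 belong to the circadian clock (Nr1d1, Nr1d2 and Dbp), and none of these passed. The pick took the smallest unadjusted p among genes with groups apart, a log2 difference of 1 or more and a mean of at least 5 FPKM in BPAF. Ggnbp1, with a BPAF mean of 4.66 FPKM, was below that level. Symbols that are not gene names were also left out. Nr1d1 and Nr1d2 encode the REV-ERB receptors, which repress the clock activator gene Arntl, and Dbp and Tef encode PAR-domain factors driven by the clock. Nr1d1 stood at 3.22, 3.6 and 1.65 FPKM in the controls and 17.8, 14.1 and 17.6 FPKM in BPAF (log2 difference 2.23, limma, adjusted p = 0.135). The lowest BPAF library was far above the highest control.

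Dbp stood at 1.41, 1.35 and 1.79 FPKM in the controls and 15.7, 8.89 and 7.67 FPKM in BPAF (log2 difference 2.17, limma, adjusted p = 0.124). Nr1d2 had 5.68, 5.74 and 9.55 FPKM in the controls against 28.8, 22.8 and 35.1 FPKM in BPAF (log2 difference 1.92, limma, adjusted p = 0.121). No library overlapped, as the choice of these genes required, and the controls were close to each other for Dbp.

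Of 17 clock genes tested, 5 lay wholly above the controls (Nr1d1, Nr1d2, Dbp, Tef and Per3) and 0 wholly below, beside 14.0% and 2.54% of all genes. The list as a whole did not share this direction, as its median log2 difference was 0.11, below that of all genes, and 7 of the members had a lower mean in BPAF. None passed in limma, and 6 were higher and 0 lower at an unadjusted p under 0.05. Arntl had a log2 difference of -0.43 and Per2 of -1.08, both with overlapping libraries. With median-ratio scaling 5 members lay wholly above the controls and 1 wholly below, beside 5.4% and 7.17% of all genes, and the median was -0.07. With the values as deposited and BPAF 1 left out, the median was 0.58, beside 0.11 with all libraries.

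The other genes picked on the higher side were Plxnb1, a semaphorin receptor gene, H1fx, a linker histone gene, Cdca7l, Dact2, a regulator of WNT and TGF-beta signalling, Pcgf6, a Polycomb ring finger gene, Pcmtd1, Amt of the glycine cleavage system, Ccdc125 and Tfap4, a bHLH factor gene. Their adjusted p in limma ran from 0.121 to 0.174. Plxnb1 had 1.23, 2.34 and 0.920 FPKM in the controls and 6.62, 7.66 and 7.96 FPKM in BPAF. Pcgf6 had 7.27, 9.59 and 9.37 FPKM in the controls and close values in BPAF, 20.1, 20.3 and 19.7 FPKM. Tfap4 had 1.47, 3.24 and 3.64 FPKM in the controls against 10.2, 8.95 and 19.8 FPKM in BPAF, with BPAF 3 the highest.

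The remaining genes of that side were at low levels in the controls. H1fx had 1.80, 2.13 and 1.11 FPKM in the controls and 7.11, 8.67 and 11.9 FPKM in BPAF, and Amt 2.27, 2.45 and 2.28 FPKM in the controls against 7.89, 7.55 and 5.12 FPKM in BPAF. Cdca7l, which resembles the MYC target Cdca7, had 3.75, 2.97 and 2.96 FPKM in the controls against 12.3, 13.8 and 8.96 FPKM in BPAF. Dact2 had 4.56, 3.6 and 2.03 FPKM in the controls against 8.50, 13.6 and 14.0 FPKM in BPAF, with BPAF 1 closest to the controls. Pcmtd1 stood at 3.54, 3.21 and 3.32 FPKM in the controls against 10.6, 6.88 and 11.6 FPKM in BPAF, and Ccdc125 at 2.08, 1.87 and 2.52 FPKM in the controls against 5.19, 6.56 and 6.80 FPKM in BPAF.

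**Figure D4:**
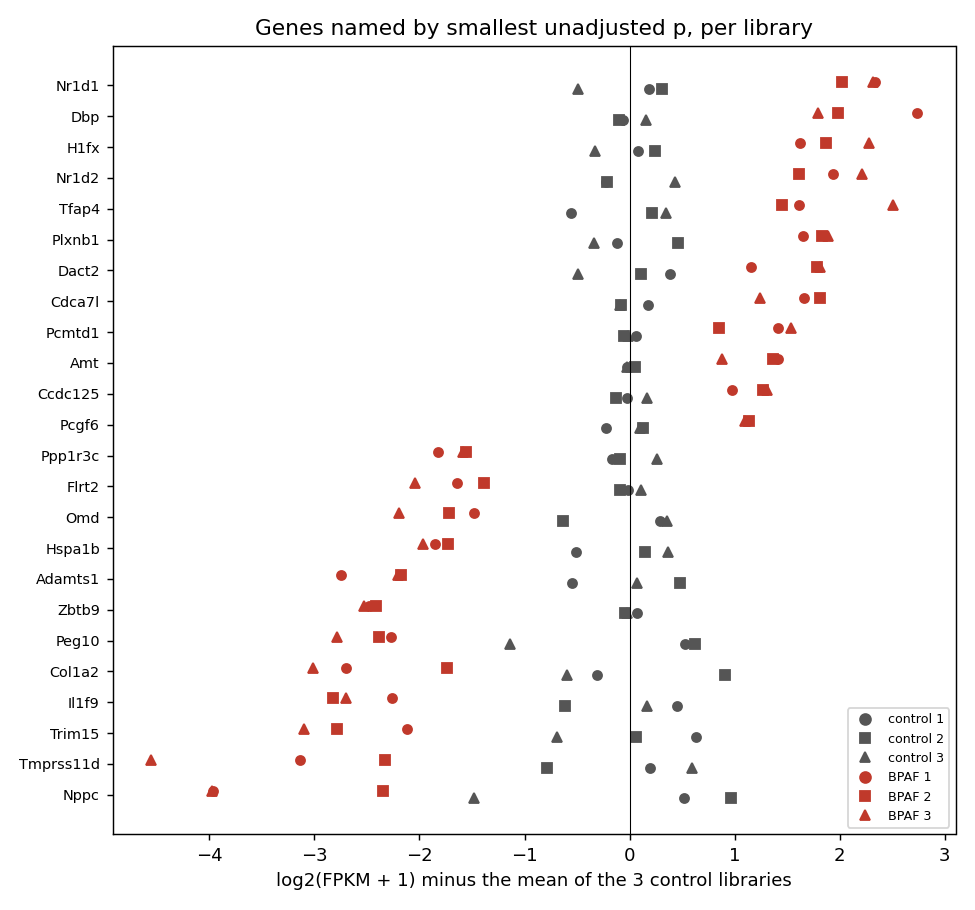
Log2(FPKM + 1) minus the mean of the 3 controls (horizontal axis) for the 12 higher and 12 lower genes with the smallest unadjusted p among those meeting the naming rule, by library. Grey symbols are controls and red symbols BPAF, with circle, square and triangle for replicates 1, 2 and 3, and the groups do not overlap for any of these genes because the rule required it. Of these genes only Zbtb9 passed the test.

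On the lower side were a tripartite motif gene, a glycogen regulator, a heat shock gene, matrix and protease genes and a peptide hormone gene. Trim15 stood at 12.3, 7.90 and 4.28 FPKM in the controls and 0.963, 0.239 and 0 FPKM in BPAF (limma, adjusted p = 0.0942). With median-ratio scaling Trim15 fell by 2.86 and was called (adjusted p = 0.0241). Ppp1r3c, which targets protein phosphatase 1 to glycogen, had 22.3, 23.6 and 30.2 FPKM in the controls against 6.39, 7.86 and 7.70 FPKM in BPAF (limma, adjusted p = 0.0942). In both, every BPAF library lay below every control, as the naming rule required, and Ppp1r3c varied little within either group.

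Hspa1b, a heat-inducible HSP70 gene, stood at 18.3, 29.5 and 34.4 FPKM in the controls and 6.65, 7.33 and 6.03 FPKM in BPAF, and its near-identical copy Hspa1a at 7.59, 14.8 and 11.2 FPKM in the controls against 4.02, 3.67 and 2.12 FPKM in BPAF. As the copies share reads, each value is uncertain. Over 16 heat shock genes these were the 2 that lay wholly below the controls, with 0 wholly above and a median of -0.09. Of all genes 2.54% lay wholly below and 14.0% wholly above. With median-ratio scaling 4 of the heat shock genes lay wholly below, beside 7.17% of all genes.

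Nppc, the gene of C-type natriuretic peptide, stood at 23.1, 31.8 and 5.02 FPKM in the controls and 0.0749, 2.30 and 0.0717 FPKM in BPAF (log2 difference -3.43, limma, adjusted p = 0.172). Its highest BPAF library, BPAF 2, was below the lowest control, control 3, by a gap smaller than the spread of the controls. Il1f9, an interleukin-1 family cytokine gene, had 8.65, 3.63 and 6.92 FPKM in the controls against 0.473, 0 and 0.0907 FPKM in BPAF, and Tmprss11d, an airway-type serine protease gene, 25.9, 12.6 and 34.5 FPKM in the controls against 1.68, 3.67 and 0 FPKM in BPAF. Peg10, a paternally expressed gene, had 11.7, 12.6 and 3 FPKM in the controls against 0.825, 0.689 and 0.283 FPKM in BPAF, and without control 3 it was called (log2 difference -3.05, adjusted p = 0.0407). Flrt2, a receptor gene of cell adhesion, had 11.1, 10.5 and 12.2 FPKM in the controls against 2.92, 3.68 and 1.97 FPKM in BPAF, and Omd, a leucine-rich proteoglycan gene, 6.18, 2.78 and 6.52 FPKM in the controls against 1.10, 0.792 and 0.288 FPKM in BPAF.

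Steroid receptor genes did not pass. Esr1, which encodes estrogen receptor alpha, had 20.6, 28.1 and 29.6 FPKM in the controls and 12.8, 27.6 and 23.1 FPKM in BPAF and overlapped (limma, adjusted p = 0.685). Pgr, the progesterone receptor gene and itself a target of estrogen, had 44.8, 59.5 and 35.6 FPKM in the controls against 13, 30.4 and 15.7 FPKM in BPAF (log2 difference -1.26, limma, adjusted p = 0.297). Of 6 tested receptor genes Pgr alone had BPAF libraries that all lay below the controls, beside 2.54% of all genes. With median-ratio scaling 2 did, beside 7.17%. Esr2 and Esrrg were too low to test, and Gper1 and Esrra overlapped.

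Known uterine targets of estrogen were largely lower in BPAF. Of 25 tested, 22 had a lower mean, 10 lay wholly below the controls and 0 wholly above, beside 2.54% and 14.0% of all genes. Their median log2 difference was -1.60. No member passed in limma, and 11 were lower and 0 higher at an unadjusted p under 0.05. The mean log2(FPKM + 1) over the list was 6.56, 5.71 and 5.70 in the controls and 4.11, 5.13 and 2.91 in BPAF, so that BPAF 2 was closest to the controls and BPAF 3 farthest. The genes of this and the other lists were chosen with results of these libraries known, and so their direction is a description.

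Epithelial secretory and barrier genes made up much of this set. Sprr2b, a small proline-rich barrier gene, stood at 112, 175 and 88.2 FPKM in the controls and 5.97, 13.4 and 0 FPKM in BPAF (limma, adjusted p = 0.198), with near-identical copies that make its value uncertain. C3, the complement component that estradiol raises, had 1190, 387 and 456 FPKM in the controls against 170, 173 and 133 FPKM in BPAF (limma, adjusted p = 0.289). The BPAF libraries were close to each other for C3, and control 1 was far above the other controls. Ltf, lactoferrin, overlapped, with 811, 77.4 and 318 FPKM in the controls and 419, 148 and 10.6 FPKM in BPAF.

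Receptor and hormone genes were also in the set. Inhbb, the beta B subunit of activin and inhibin, had 218, 347 and 126 FPKM in the controls and 6.62, 86.3 and 12.2 FPKM in BPAF (log2 difference -3.37, limma, adjusted p = 0.269). Oxtr, the oxytocin receptor gene, had 39.7, 56.4 and 14.7 FPKM in the controls against 1.07, 13.5 and 3.27 FPKM in BPAF (limma, adjusted p = 0.269). For both genes BPAF 2 was the highest BPAF library and control 3 the lowest control, and the gap between them was small for Oxtr. Greb1, a gene close to ESR1 action, overlapped with 11.8, 10.3 and 3.30 FPKM in the controls against 0.681, 8.33 and 4.67 FPKM in BPAF. Akr1c14, a hydroxysteroid dehydrogenase gene outside this list, had 142, 112 and 185 FPKM in the controls and 16.9, 58.6 and 9.56 FPKM in BPAF (limma, adjusted p = 0.228). Of 12 tested steroid-metabolizing genes, 1 (Akr1c14) lay wholly below the controls and 1 (Hsd17b10) wholly above, beside 2.54% and 14.0% of all genes. None of the 12 passed in limma, with 2 higher and 1 lower at an unadjusted p under 0.05.

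Genes of progesterone and Indian hedgehog leaned the other way. Of 14 tested, 13 had a higher mean, 3 lay wholly above the controls and 0 below, with a median of 1.30. Of all genes 69.3% had a higher mean and 14.0% lay wholly above. Limma called none, and 6 were higher at an unadjusted p under 0.05. The list's mean was 2.35, 2.54 and 1.83 in the controls and 3.58, 2.46 and 4.01 in BPAF, so BPAF 2 lay among the controls and BPAF 1 and 3 well above them. Without BPAF 3 the median was 0.77. Gli1, the transcription factor gene switched on by hedgehog, stood at 3.76, 12.3 and 2.44 FPKM in the controls and 17.9, 18.4 and 21.4 FPKM in BPAF (log2 difference 1.74, limma, adjusted p = 0.289), and Ptch1, the hedgehog receptor gene, at 1.97, 2.00 and 0.817 FPKM in the controls against 3.30, 3.10 and 6.56 FPKM in BPAF. Hoxa11, a stromal homeobox gene outside this list, had 15.2, 22.6 and 14.3 FPKM in the controls against 66.5, 23.2 and 99.8 FPKM in BPAF. Its BPAF 2 value was just above control 2, and its libraries overlapped with median-ratio scaling.

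Gland and epithelial genes showed a mixed picture. Among 7 tested gland genes Foxa2, Wfdc2 and Sult1d1 all lay wholly above the controls, beside 14.0% of all genes. With median-ratio scaling 2 of 7 did, beside 5.4%. The median was 0.72, and none passed in limma, with 1 higher at an unadjusted p under 0.05. Wfdc2, a secreted protease inhibitor gene, had 135, 74.0 and 125 FPKM in the controls and 216, 244 and 228 FPKM in BPAF. Sult1d1, a sulfotransferase gene, had 1.86, 5.36 and 8.17 FPKM in the controls against 39.4, 10.9 and 274 FPKM in BPAF, and the highest was BPAF 3, the library with the gland proteases. Foxa2, the factor that defines glands, had 1.15, 0.906 and 1.26 FPKM in the controls against 2.18, 2.6 and 2.6 FPKM in BPAF. Msx1, a homeobox gene of the epithelium, had 8.60, 17.9 and 11 FPKM in the controls against 52.7, 34.8 and 30.2 FPKM in BPAF. The 18 epithelial genes had a median of 0.06 and the 16 stromal genes of 0.20, which is the level of all genes, and both were below 0 with median-ratio scaling (-0.24 and -0.10). With 1 library left out they ran from -0.17 to 0.35 and from -0.12 to 0.49, so neither median had a settled sign. Of the epithelial genes 5 lay wholly above the controls and 0 below, and of the stromal genes 2 and 0, beside 14.0% and 2.54% of all genes. With median-ratio scaling these were 2 and 0, and 1 and 1, beside 5.4% and 7.17%. None passed in limma, and at an unadjusted p under 0.05, 3 epithelial and 4 stromal genes were higher and 0 lower.

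Genes of the fibrillar matrix had a lower mean in most members. Of 21 tested, 19 had a lower mean, 7 lay wholly below the controls and 0 above, beside 2.54% and 14.0% of all genes, and the median was -1.45. None was called by limma, and 11 were lower at an unadjusted p under 0.05. Col1a2, a chain of type I collagen, stood at 243, 568 and 199.7 FPKM in the controls and 45.8, 90.0 and 36.5 FPKM in BPAF (limma, adjusted p = 0.172). Col3a1, type III collagen, had 398, 849.8 and 356 FPKM in the controls against 122, 143 and 111 FPKM in BPAF (limma, adjusted p = 0.212). Lox, the enzyme that cross-links collagen, had 52.2, 73.7 and 59.0 FPKM in the controls against 16.1, 13 and 26.2 FPKM in BPAF (limma, adjusted p = 0.190). Control 2 was the highest library for all 3, and without it the list's median was -0.91.

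Proteases that act on matrix were split. Adamts1, which cleaves proteoglycans, stood at 46.1, 95.5 and 71.5 FPKM in the controls against 9.32, 14.3 and 14.0 FPKM in BPAF. Adamts4, with a like activity, had 16.5, 32.8 and 9.34 FPKM in the controls against 2.98, 2.52 and 5.20 FPKM in BPAF. Adamts2, which trims procollagen, had 43.5, 47.5 and 9.43 FPKM in the controls against 6.34, 7.37 and 4.41 FPKM in BPAF and was called without control 3 (log2 difference -2.75, adjusted p = 0.0134). Of 14 tested proteases and inhibitors 5 lay wholly below (with Plau, the urokinase gene, and Timp1) and Plat, the tissue plasminogen activator gene, wholly above, beside 2.54% and 14.0% of all genes. No gene of the list passed in limma, with 4 lower and 2 higher at an unadjusted p under 0.05, and the median of 0.12 turned to -0.18 with median-ratio scaling and ran from -0.25 to 0.37 with 1 library left out.

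Smooth muscle genes had a lower mean in BPAF in most members, and BPAF 3 was the lowest library of the list. Of 19 tested, 18 had a lower mean, 6 lay wholly below the controls, beside 2.54% of all genes, and the median was -0.82. With median-ratio scaling 12 lay wholly below, beside 7.17% of all genes. Limma called no member, and 4 were lower at an unadjusted p under 0.05. Myh11, the smooth muscle myosin heavy chain gene, had 424, 503 and 239 FPKM in the controls and 169, 229 and 87.8 FPKM in BPAF (limma, adjusted p = 0.325). Actg2, a smooth muscle actin gene, had 426, 524 and 406 FPKM in the controls against 248, 225 and 58.3 FPKM in BPAF (limma, adjusted p = 0.300). The list's mean was 6.60, 7.03 and 6.36 in the controls and 6.32, 6.23 and 5.08 in BPAF, so that BPAF 1 was barely below control 3, and without BPAF 3 the median was -0.39.

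Inflammatory and interferon genes were lower too, and control 1 carried much of this. Of 16 cytokine and chemokine genes 5 lay wholly below the controls and 1, Cxcl14, wholly above, beside 2.54% and 14.0% of all genes (median -1.15, -0.70 without control 1 and -0.74 without BPAF 2). None of them passed in limma, with 6 lower and 1 higher at an unadjusted p under 0.05. Ccl7, a monocyte chemokine gene, had 51.0, 13.1 and 29.1 FPKM in the controls and 2.63, 4.28 and 0.0933 FPKM in BPAF (limma, adjusted p = 0.213), and Ccl2, its close relative, 11.6, 3.33 and 4.03 FPKM in the controls against 0.858, 0.431 and 0.196 FPKM in BPAF. S100a9, a neutrophil alarmin gene, had 8.92, 6.64 and 2.83 FPKM in the controls against 0.321, 0 and 0 FPKM in BPAF.

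All 25 interferon-stimulated genes had a lower mean in BPAF, with a median of -1.36 that shrank to -0.42 without control 1. Their mean was 6.15, 3.04 and 3.33 in the controls and 3.14, 2.56 and 2.80 in BPAF, so control 1 stood apart while control 2 and 3 were close to BPAF 1. None passed in limma, and 7 were lower at an unadjusted p under 0.05. Bst2, or tetherin, had 773, 272 and 347 FPKM in the controls and 168, 172 and 144 FPKM in BPAF (limma, adjusted p = 0.289).

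Markers of leukocytes gave no common direction. Of 13 macrophage genes 1 lay wholly below the controls, beside 2.54% of all genes. This was Cd14, with 226, 103 and 129 FPKM in the controls against 71.9, 84.8 and 59.0 FPKM in BPAF. All 8 tested genes of T and natural killer cells overlapped, while 16.6% of all genes did not. The MHC class II gene H2-Eb1 had 74.4, 12.7 and 2.34 FPKM in BPAF and 1.06, 1.04 and 4.95 FPKM in the controls, and BPAF 1 was the high library. The part of leukocyte number in the cytokine values was not tested.

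Division genes were described as a replication and a mitosis list. All 22 DNA replication genes had a higher mean in BPAF (median 0.66), beside 69.3% of all genes. Only 1 lay wholly above the controls, a lower share than the 14.0% of all genes. This was Mcm7, a subunit of the replicative helicase, at 4.82, 8.55 and 3.93 FPKM in the controls against 14.6, 21.3 and 12.2 FPKM in BPAF (limma, adjusted p = 0.213). No member passed in limma, and 1 had an unadjusted p under 0.05. The list's mean was 2.10, 2.97 and 2.27 in the controls and 3.24, 3.97 and 2.11 in BPAF, with BPAF 3 at the level of the lower controls. Without BPAF 2 the median was 0.23 and without BPAF 3 it was 1.18. The 24 mitosis genes had a median of -0.09 and 0 with groups apart. Leaving out 1 library turned this median, from -0.48 without BPAF 2 to 0.47 without BPAF 3. Mki67, the proliferation marker, had 11.3, 21.0 and 35.2 FPKM in the controls and 11.8, 25.5 and 5.24 FPKM in BPAF. None of the mitosis genes had an unadjusted p under 0.05 in limma.

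Genes of WNT signalling had higher means in most members, while those of activin, BMP and TGF-beta were split. Of 17 tested WNT genes 15 had a higher mean and 4 lay wholly above (Fzd6, Nkd2, Dkk2 and Rspo3), beside 69.3% and 14.0% of all genes, and the median was 0.52. With median-ratio scaling 1 member lay wholly above, beside 5.4% of all genes, and the median was 0.24. Without control 3 the median was 0.18. Limma called none, and 4 were higher at an unadjusted p under 0.05. Nkd2, an antagonist of WNT signalling, had 2.20, 2.12 and 1.44 FPKM in the controls and 26.1, 2.63 and 13.2 FPKM in BPAF. BPAF 2 barely exceeded the controls, while BPAF 1 and 3 were high. The 22 tested genes of activin, BMP and TGF-beta gave another balance. Of these, 1 lay wholly above the controls and 4 wholly below, beside 14.0% and 2.54% of all genes. With median-ratio scaling it was 1 and 7, beside 5.4% and 7.17%. None passed in limma, with 3 higher and 3 lower at an unadjusted p under 0.05. The median was 0.00 (-0.27 with median-ratio scaling). The gene wholly above the controls was Id3, a target of BMP signalling. It had 6.45, 10.8 and 5.94 FPKM in the controls against 54.5, 25.8 and 18.2 FPKM in BPAF (limma, adjusted p = 0.213).

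Genes of cholesterol synthesis were lower in most members but seldom apart. Of 22 tested 20 had a lower mean, 1 lay wholly below the controls, beside 2.54% of all genes, and the median was -0.82. None was called by limma, and 9 were lower at an unadjusted p under 0.05. Cyp51, a sterol demethylase, had 39.7, 31.6 and 25.8 FPKM in the controls and 10.1, 19.2 and 8.38 FPKM in BPAF (limma, adjusted p = 0.213). Without BPAF 3 the median was -0.49. With median-ratio scaling 10 members lay wholly below, beside 7.17% of all genes.

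Among genes of xenobiotic metabolism BPAF 1 dominated the levels. Of 14 tested 4 lay wholly above the controls and 0 below, beside 14.0% and 2.54% of all genes, and the median was 0.57 (0.24 without BPAF 1). With median-ratio scaling 1 lay wholly above, beside 5.4% of all genes, and the median was 0.28. No gene of the list passed in limma, and 5 were higher at an unadjusted p under 0.05. Gsta4, a glutathione transferase gene, had 8.31, 8.37 and 24.4 FPKM in the controls and 632, 32.9 and 45.5 FPKM in BPAF, and with median-ratio scaling its libraries overlapped. The urothelial genes were high in the same library, and their part in this result was not tested. Fmo1, a flavin monooxygenase gene, had 3.24, 5.07 and 1.63 FPKM in the controls against 9.94, 5.24 and 21.9 FPKM in BPAF, with BPAF 3 the highest.

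Stress lists held members apart on either side, and their counts depended on the scaling. Of 20 endoplasmic reticulum stress genes 4 lay wholly below the controls and 0 above, beside 2.54% and 14.0% of all genes, with a median of -0.21 (none passing in limma, 0 at an unadjusted p under 0.05). With median-ratio scaling 8 lay wholly below, beside 7.17% of all genes, and the median was -0.51. Hspa5, the chaperone BiP, had 144, 164 and 294 FPKM in the controls and 116, 132 and 111 FPKM in BPAF. Among 19 antioxidant genes 2 lay wholly above and 1 wholly below, beside 14.0% and 2.54% of all genes. With median-ratio scaling it was 0 and 1, beside 5.4% and 7.17%. The gene below was Srxn1, or sulfiredoxin, at 22.3, 27.7 and 18.1 FPKM in the controls against 15.4, 11.5 and 7.94 FPKM in BPAF (limma, adjusted p = 0.289). Among 19 targets of p53 and apoptosis genes 5 lay wholly above and 1, Cdkn1a, below, beside 14.0% and 2.54% of all genes. With median-ratio scaling 2 lay above and 3 below, beside 5.4% and 7.17% of all genes, whose balance turned too. Bbc3, which encodes the pro-apoptotic protein PUMA, had 1.31, 1.12 and 0.795 FPKM in the controls and 3.02, 1.54 and 7.40 FPKM in BPAF, and Bcl2, an inhibitor of apoptosis, 3.30, 3.77 and 3.10 FPKM in the controls against 7.87, 4.34 and 9.75 FPKM in BPAF. Both sides of the pathway thus had members above the controls. The median of this list was 0.24, near that of all genes, -0.06 with median-ratio scaling, and 0.09 to 0.37 with 1 library left out.

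Growth factor lists and DNA methylation genes had medians near that of all genes. The 11 insulin-like growth factor genes all overlapped (median 0.10, and -0.12 to 0.48 with 1 library left out), and Igfbp3, a binding protein gene, had 12.9, 14.2 and 12.1 FPKM in the controls and 32.7, 7.77 and 336 FPKM in BPAF, with only BPAF 3 far from the rest. Of 13 VEGF and angiopoietin genes Nrp1, the neuropilin coreceptor gene, lay wholly below the controls, beside 2.54% of all genes. Nrp1 had 33.8, 29.4 and 26.7 FPKM in the controls against 16.7, 22.1 and 17.3 FPKM in BPAF. Of 11 DNA methylation genes 2 lay wholly above (1 with median-ratio scaling, beside 5.4% of all genes), a share near the 14.0% of all genes. They were Dnmt3a and Dnmt3b, which encode de novo methyltransferases, with 0.693, 0.826 and 0.502 FPKM in the controls and 1.13, 1.88 and 1.64 FPKM in BPAF for Dnmt3b. The list's median was 0.30, 0.00 with median-ratio scaling, and -0.01 to 0.47 with 1 library left out.

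Fos, an immediate early gene, had 25.1, 11.2 and 15.2 FPKM in the controls and 2.51, 6.01 and 4.65 FPKM in BPAF (log2 difference -1.74, limma, adjusted p = 0.212). Of the other immediate early genes among 18 tested, 3 lay wholly above the controls (Ier2, Klf2 and Myc), a share near the 14.0% of all genes, and the rest overlapped. With median-ratio scaling 0 of the 18 lay wholly above and 5 wholly below, beside 5.4% and 7.17% of all genes. Myc had 2.06, 2.80 and 3.58 FPKM in the controls against 4.27, 5.06 and 11.8 FPKM in BPAF and overlapped with median-ratio scaling.

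How many ribosomal protein genes lay above the controls depended on the scaling. Of 77 tested 21 lay wholly above and 0 below (median 0.47), beside 14.0% and 2.54% of all genes, while with median-ratio scaling it was 3 and 0 (median 0.17), beside 5.4% and 7.17%. Without control 1 the median was 0.29 and without control 3 it was 0.83. Limma called no member, and 14 were higher at an unadjusted p under 0.05. The 13 mitochondrially encoded genes had a median of 0.35, which was 1.05 without control 3, the library with the high mitochondrial share, and 0.03 or 0.04 without control 1 or 2.

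**Figure D5:**
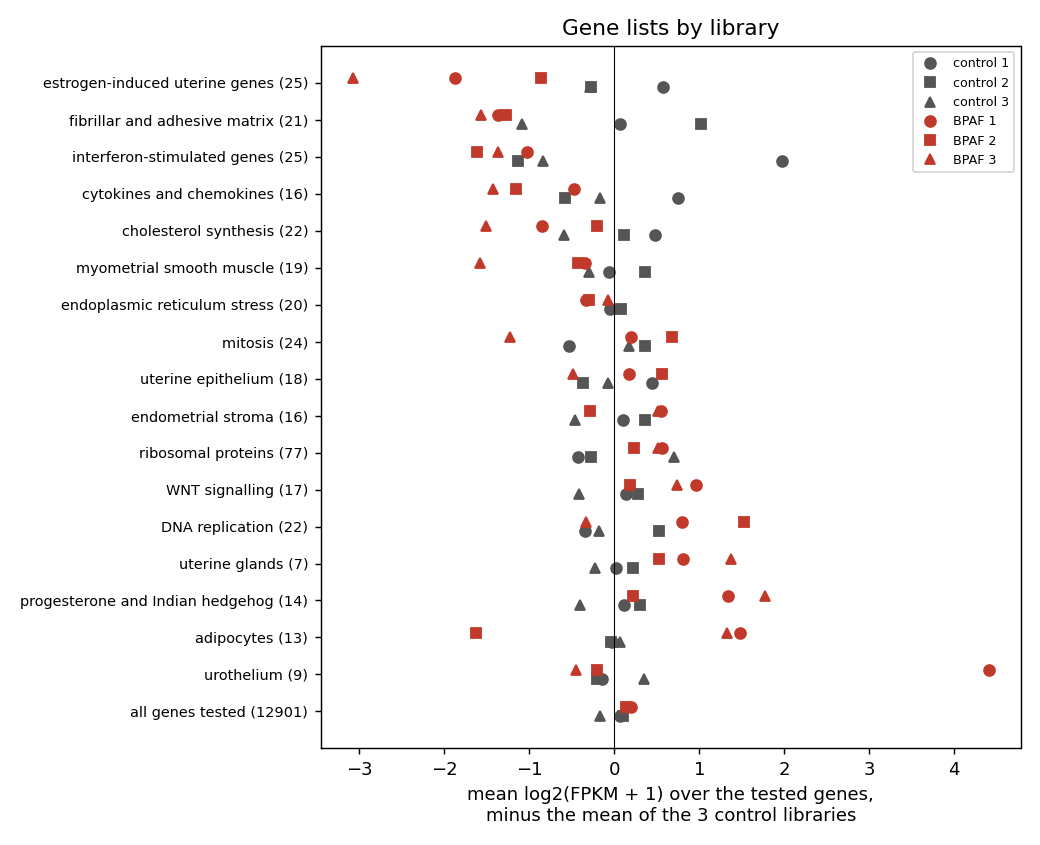
Mean log2(FPKM + 1) over the tested members of each list (rows, number tested in brackets) in each library, minus the mean of the 3 controls (horizontal axis). Grey symbols are controls and red symbols BPAF, and for estrogen-induced genes every BPAF library lies below every control, while the urothelial genes are high in BPAF 1 alone and the interferon-stimulated genes in control 1.

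BPAF and BPB were compared directly for the genes named above, at the same dose by mass and the same time. The bridging carbon of BPB has an ethyl group beside a methyl group, in place of the pair of trifluoromethyl groups of BPAF. Over all 12901 genes limma called 0 between BPAF and BPB (0.0%), with 707 (5.48%) at an unadjusted p under 0.05, and the adjusted values are over all genes. For Zbtb9 the difference BPAF minus BPB was 0.03 (95% interval -0.39 to 0.46), for Ggnbp1 0.13 (-0.36 to 0.61) and for Pnoc -0.10 (-0.55 to 0.35), each with an adjusted p of 0.998. Zbtb9 stood at 0.441, 0.503 and 0.320 FPKM, Ggnbp1 at 3.53, 4 and 5.06 FPKM and Pnoc at 0.0953, 0.0891 and 0.138 FPKM in BPB. Between BPB and control 97 genes (0.752%) were called. Both compounds share the 3 controls, so their separate comparisons with control are not independent of each other. Against control, BPB had log2 differences of -2.51, 1.92 and -1.67 for these genes, beside -2.48, 2.04 and -1.77 for BPAF.

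Some of the genes that were low in BPAF were also below BPB in every library, without passing the test. They included Hspa1b and the smooth muscle genes Myh11 and Actg2. Hspa1a, Ppp1r3c, Col3a1 and Peg10 were below BPB in every library too, the last 3 by small gaps. Hspa1b had a log2 difference BPAF minus BPB of -1.34 (95% interval -1.94 to -0.74, limma, adjusted p = 0.225), with 18.0, 15.8 and 21.6 FPKM in BPB. Myh11 stood at 534, 1065 and 1222 FPKM and Actg2 at 809, 704 and 1266 FPKM in BPB, above all controls, where BPAF was below them. The differences were -2.55 (-3.63 to -1.47) and -2.59 (-3.78 to -1.39), with adjusted p of 0.196 and 0.238 in limma. All 3 BPB libraries also carried the urothelial genes (2218 to 3710 FPKM in sum over 15 genes), whose part in these values was not tested. For the clock genes the differences were -0.56 (-1.38 to 0.26) for Nr1d1, 0.51 (-0.15 to 1.17) for Nr1d2 and 0.19 (-0.57 to 0.96) for Dbp, and for Cdca7l 0.90 (0.28 to 1.52), with adjusted p of 0.597 for Cdca7l. The intervals of the clock genes run from -1.38 for Nr1d1 to 1.17 for Nr1d2, so that the responses to both compounds are not shown to be alike.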

How the data were processed

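Poly(A) RNA of whole uterus was sequenced in 9 libraries, 3 per group, and groups were taken from the sample titles. Each deposited file gives 1 FPKM value per gene symbol for 1 library. The unit was read from the values, since the file headers name none, and the sources used here do not give the aligner, counting tool, genome build, annotation or use of the strand. The steps between low values gave the reads behind each library, with 88.1% to 90.6% of the checked values within 0.02 reads of whole numbers. Reads of a gene were inferred from the smallest gene length at which all 9 libraries gave nearly whole numbers. The true counts of a gene may therefore be higher. Of 34745 lines per file, 126 with a repeated symbol were left out, and 23 symbols had been turned into dates by a spreadsheet.

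The test was limma 3.58.1 under R 4.3.3 on log2(FPKM + 1), using its trend and robust options, for genes at 1 FPKM or more in at least 3 of the 6 control and BPAF libraries. All 9 libraries entered 1 fit with group as the only term. Adding 1 shrinks the differences of genes at low FPKM. The tests were two-sided, and p-values were Benjamini-Hochberg adjusted over the 12901 genes, with calls at an adjusted p under 0.05. Gene lists were described by counts, medians and library means, with no test of a list. The procedure was tested on simulated data.

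Genes were named if called, or if among the 12 with the smallest unadjusted p in each direction. The 12 were taken among genes with libraries apart, a log2 difference of 1 or more, a mean of at least 5 FPKM in the higher group and a symbol that is a gene name. Also named were genes among the 3 smallest p of a list, and hormone receptor, opioid or neighbouring genes. The comparison, lists and rules were chosen with earlier results of these data known. Alternatives were other filters, pseudocounts, scalings and thresholds, limma without trend or robust estimation, the 6 libraries alone, the replicate number as a block, and each library left out in turn. Not all named genes are reported here.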

Additional observations from a re-analysis of the deposited data

Results flagged for a closer look

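The smooth muscle genes Myh11 and Actg2 met a rule for opposite effects: all 3 BPAF libraries lay below, and all 3 BPB libraries above, all 3 controls. The difference BPAF minus BPB was -2.55 on the log2(FPKM + 1) scale for Myh11 (limma, adjusted p = 0.196) and -2.59 for Actg2 (limma, adjusted p = 0.238), so neither passed. Among the 12901 genes tested, 10 had this pattern and 2 had the opposite pattern. The lowest BPAF library was BPAF 3 for both genes, and the BPB libraries held 2218 to 3710 FPKM of 15 urothelial genes against 71.3 to 154 FPKM in the controls. The part of these in the difference was not tested.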

How the results depend on the processing

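The number of genes called between BPAF and control was 3. It was 4 with no filter on low values, 2 with a pseudocount of 0.1 or 0.01, 3 without trend or without robust estimation, 4 with median-ratio scaling, 1 with equal FPKM sums with or without the mitochondrial genes, and 5 at an adjusted p under 0.1. In limma it was 0 under a filter of 5 FPKM in 3 libraries (890 at an unadjusted p under 0.05), 0 with the 6 libraries alone (1099) and 0 with the replicate block (1399). Ggnbp1 and Pnoc did not meet the filter of 5 FPKM and so were not tested there. Zbtb9 had an adjusted p of 0.207 in limma under that filter. Leaving out each library in turn gave 1 to 6 genes: 1, 6 and 6 without control 1, 2 and 3, and 1, 2 and 1 without BPAF 1, 2 and 3. With the replicate number as a block the adjusted p was 0.0558 for Zbtb9, 0.101 for Ggnbp1 and 0.123 for Pnoc. The samples share only a number: libraries with the same number had correlations of their deviations of -0.18, -0.07 and -0.25, and none correlated best with its own number. Pnoc was not called with pseudocounts of 0.1 and 0.01 (adjusted p = 0.162 and 0.255), and neither Ggnbp1 nor Pnoc with equal FPKM sums (0.127 for both, 0.0637 for both without the mitochondrial genes). Of the 71 genes whose difference was recomputed, 2 changed sign in limma: leaving out 1 library moved Gper1 between -0.07 (without BPAF 1) and 0.46 (without BPAF 3), with 0.00 without control 1, and Esrra between -0.49 (without BPAF 2) and 0.01 (without BPAF 3). The count of 0 between BPAF and BPB was the same with a pseudocount of 0.1 and with median-ratio scaling. Depth limits the low genes most, as Pnoc rested on 3 inferred reads over the BPAF libraries.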
